A study of Mus musculus with 6 samples.

Results

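Ribosome biogenesis and nucleolar genes were described in MLL-AF9 transformed mouse hematopoietic stem and progenitor cells (HSPCs), blood-forming cells that carry a fusion oncogene of acute leukemia. The 40 genes were chosen by name, as factors of RNA polymerase I transcription and of ribosome assembly, and all 40 were found among the 23337 counted genes. All 40 also passed the filter on low counts, which left 12477 genes. The list was proposed with the comparison of the cultures in view, so that fold changes and calls of these 40 genes are descriptions and no p-value is given for them.

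The study kept the transformed cells in pro-lymphoid or pro-myeloid culture and measured polyadenylated RNA in 3 libraries of each. All libraries carry MLL-AF9, and no untransformed cells were analysed here. The sources used here do not give strain, age, cytokines or the number of transformed clones. They do not state that libraries came from separate cultures either, so a p-value reflects only how far these 6 libraries scatter, and that scatter may be technical. The numbers in the titles serve as replicate names, pro-lymphoid replicates 1, 5 and 6 and pro-myeloid replicates 2, 3 and 4.

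Ribosome production begins in the nucleolus, where RNA polymerase I transcribes the ribosomal DNA repeats into a long precursor RNA. Small nucleolar ribonucleoproteins (snoRNPs) modify this precursor, with box C/D particles guiding methylation and box H/ACA particles guiding pseudouridylation. The small subunit processome and the large subunit assembly factors then cleave and fold it around ribosomal proteins into the subunits of the ribosome. The transcription factor MYC is a well-known activator of these genes, and growing progenitor and leukemia cells depend on a high output of ribosomes.

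The libraries held 34972488 to 46724382 counts, and 3 counts in 1 library correspond to 0.0642 to 0.0858 CPM, the usual unit of counts relative to the library total. CPM values carry TMM scaling factors (trimmed mean of M-values), which adjust library sizes. Ptprc, the pan-leukocyte gene CD45, was present in all libraries (323, 277 and 287 against 354, 433 and 369.9 CPM). Of 3 T cell genes, Cd3e was at 0 counts in all 6 libraries, Cd3g had 5 counts in pro-lymphoid replicate 5 and 1 in pro-myeloid replicate 3, and Cd3d had 8, 2 and 3 against 3, 10 and 10 counts. The summed level of 9 granulocyte genes lay between 162 and 366 CPM in pro-lymphoid and between 4535 and 9069 CPM in pro-myeloid culture, none of the 9 being at 0 throughout either group. Genes of lymphoid priming (5 in number) summed to 436 to 677 CPM in pro-lymphoid and 0.911 to 30.9 CPM in pro-myeloid culture, with Rag1 and Ly6d at 0 in the latter. The progenitor genes Cd34 (412, 203 and 309 against 151, 100.2 and 101 CPM) and Kit (80.4, 68.4 and 102 against 18.8, 13.3 and 42.6 CPM) were also higher in pro-lymphoid culture. Spi1, another hematopoietic gene, counted under its older symbol Sfpi1, was lower there (285, 273 and 291 against 359, 505 and 382 CPM). Sums of monocyte and macrophage genes (388 to 725 against 337 to 770 CPM) and of B cell genes (0.233 to 0.597 against 0.234 to 2.72 CPM) overlapped between the cultures. Csf1r, Cd14 and Adgre1 (counted as Emr1) overlapped, while the monocyte gene Ly86 was higher in pro-lymphoid culture (191, 170 and 164 against 14.7, 114 and 25.9 CPM). The B cell gene Pax5 had 2, 2 and 0 against 1, 81 and 78 counts. The part of these marker differences in the results below was not tested. In bulk RNA, fewer cells of a type and less RNA per cell cannot be told apart, and CPM shows a gene's part of the RNA, not the RNA content of a cell.

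All 40 genes had a higher fitted level in pro-lymphoid culture. The fold ranged from 1.05 for Ebna1bp2 to 2.28 for Nolc1 with a median of 1.58, which is a median log2 fold change of 0.66 (pro-lymphoid minus pro-myeloid culture) beside a median of -0.00019 over all 12477 genes tested. By the edgeR quasi-likelihood test over all genes (adjusted p under 0.05), 29 of the 40 were called higher, 0 lower and 11 were not called. Over all genes tested, 16.8% were called higher and 20.6% lower. At an unadjusted p under 0.05, 35 were higher and 0 lower. The share of all genes at that threshold was not computed, here or below. It is no smaller than the adjusted shares of 16.8% higher and 20.6% lower, and nothing is read from the unadjusted counts. DESeq2 and limma-voom called 32 and 30 higher and 0 lower. Over all genes they called 2519 and 2218 higher and 2913 and 2607 lower. The 3 libraries of each culture did not overlap for 36 of the 40 genes, all with the higher values in pro-lymphoid culture, where 26.4% of all genes tested showed this, 27.2% showed the opposite and 53.6% either. Nothing is read from these shares, since the list was proposed from the same comparison.

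Together the 40 genes made up 0.840 ± 0.0794% of a pro-lymphoid library and 0.513 ± 0.0799% of a pro-myeloid one (SD, n = 3). The values of the libraries were 0.777, 0.813 and 0.929% against 0.554, 0.420 and 0.563%, in the order of replicates 1, 5 and 6 and then 2, 3 and 4, which is kept below. The lowest pro-lymphoid value lay above the highest pro-myeloid value. As all 40 log2 fold changes were positive, so were the medians of the 6 functional groups within the list. These medians ran from 0.56 for large subunit assembly to 0.83 for the nucleolar chaperones.

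**Figure D1:**
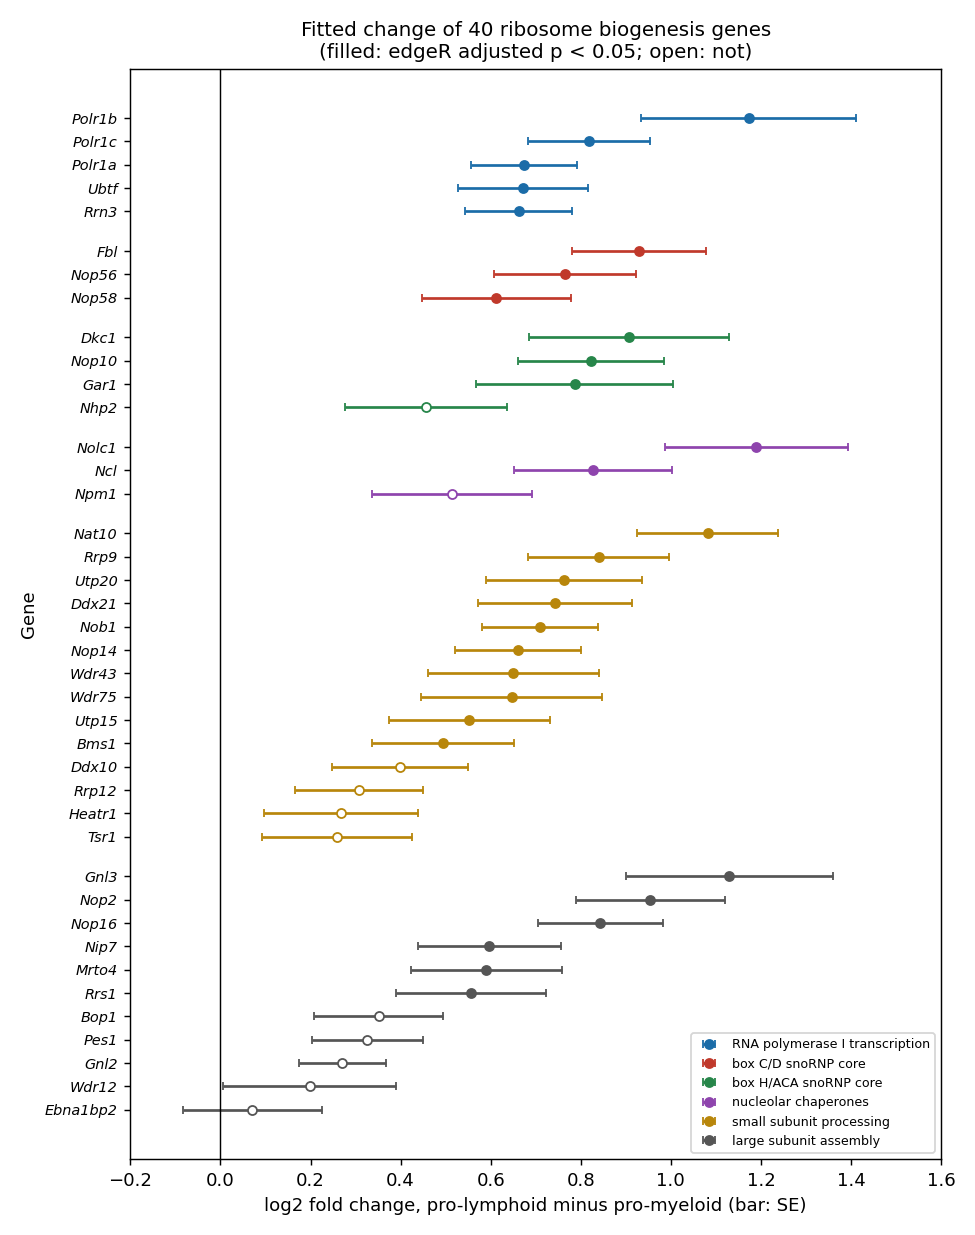
Difference between cultures as log2 fold change (x axis, positive where pro-lymphoid is higher) for the 40 genes (y axis), with bars for the SE of the fit, colours for the functional group, filled points where the edgeR adjusted p was under 0.05 and open points where not. All points lie to the right of 0, from 0.07 for Ebna1bp2 to 1.19 for Nolc1.

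MYC and its relatives bind E-boxes, and the promoters were searched for the letters of the canonical one, CACGTG, which read the same on both strands. The windows hold 250 bases before and 50 from the transcription start on, from RefSeq on GRCm38.p6, the assembly behind mm10. Of the 40 genes, 34 had an entry, and Bop1, Fbl, Gnl2, Npm1, Rrp12 and Rrs1 had none. Of their 41 windows, 35 held an exon edge of the gene as counted. In 34 windows, bases just after the start occurred in a transcript of the gene, which covered 28 of the 34 genes. The other windows may not hold the start of the counted gene. The motif stood in a promoter of 6 of the 34 genes (17.6%), of 20 of 111 other ribosome biogenesis genes (18.0%), and of 11.8% of the 8837 tested genes with an entry. Per window these shares were 14.6% (6 of 41), 18.3% and 9.93%, beside 7.15% of all 32851 windows of the table. The motif contains the letters CG, which numbered 23, 21, 20 and 7 per window (medians, in the same order). The shares were not adjusted for this. A match is a description of the letters, not of binding.

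The windows of the 3 genes with the highest log2 fold change, Nolc1, Polr1b and Gnl3, are shown first, then those of the 3 lowest, Tsr1, Wdr12 (the most upstream of 3 listed starts) and Ebna1bp2, and last those of Rrn3 and Nop2, which rank first by the number of motifs (ties in alphabetical order). Capitals mark CACGTG.
Nolc1, chr19:46075597-46075896, plus strand: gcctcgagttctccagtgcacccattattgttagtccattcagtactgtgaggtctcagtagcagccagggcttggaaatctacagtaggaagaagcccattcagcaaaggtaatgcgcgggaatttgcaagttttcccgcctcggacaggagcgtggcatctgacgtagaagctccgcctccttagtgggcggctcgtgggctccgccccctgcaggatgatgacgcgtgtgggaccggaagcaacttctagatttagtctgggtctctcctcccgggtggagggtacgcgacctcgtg
Polr1b, chr2:129100746-129101045, plus strand: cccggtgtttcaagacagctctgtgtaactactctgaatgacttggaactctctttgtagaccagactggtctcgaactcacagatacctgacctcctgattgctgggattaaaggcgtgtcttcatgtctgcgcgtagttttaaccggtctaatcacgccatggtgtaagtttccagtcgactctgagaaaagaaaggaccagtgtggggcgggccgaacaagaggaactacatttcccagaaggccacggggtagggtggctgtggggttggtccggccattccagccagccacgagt
Gnl3, chr14:31019082-31019381, minus strand: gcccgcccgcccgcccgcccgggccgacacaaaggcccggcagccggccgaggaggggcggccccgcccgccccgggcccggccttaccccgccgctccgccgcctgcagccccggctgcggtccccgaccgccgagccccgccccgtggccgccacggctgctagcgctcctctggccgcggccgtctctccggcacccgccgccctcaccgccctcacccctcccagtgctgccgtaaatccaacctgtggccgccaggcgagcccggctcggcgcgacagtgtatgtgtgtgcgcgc
Tsr1, chr11:74897830-74898129, plus strand: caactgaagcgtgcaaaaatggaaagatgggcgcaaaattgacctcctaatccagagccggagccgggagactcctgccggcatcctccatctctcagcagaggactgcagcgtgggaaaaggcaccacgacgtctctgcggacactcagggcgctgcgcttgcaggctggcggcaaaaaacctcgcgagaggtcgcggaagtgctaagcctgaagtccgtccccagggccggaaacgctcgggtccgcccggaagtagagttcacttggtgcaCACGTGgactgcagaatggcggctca
Wdr12, chr1:60098451-60098750, minus strand: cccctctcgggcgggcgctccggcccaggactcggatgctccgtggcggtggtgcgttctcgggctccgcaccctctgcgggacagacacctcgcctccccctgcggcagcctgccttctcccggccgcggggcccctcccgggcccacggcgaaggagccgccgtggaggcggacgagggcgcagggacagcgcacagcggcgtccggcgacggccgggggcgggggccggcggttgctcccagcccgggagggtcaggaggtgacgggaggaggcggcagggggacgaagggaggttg
Ebna1bp2, chr4:118620549-118620848, plus strand: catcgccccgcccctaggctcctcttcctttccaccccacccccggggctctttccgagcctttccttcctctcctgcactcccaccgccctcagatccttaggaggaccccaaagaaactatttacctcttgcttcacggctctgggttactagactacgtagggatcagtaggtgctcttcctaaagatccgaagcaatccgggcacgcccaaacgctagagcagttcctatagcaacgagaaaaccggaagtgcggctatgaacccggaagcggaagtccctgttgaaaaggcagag
Rrn3, chr16:13780449-13780748, plus strand: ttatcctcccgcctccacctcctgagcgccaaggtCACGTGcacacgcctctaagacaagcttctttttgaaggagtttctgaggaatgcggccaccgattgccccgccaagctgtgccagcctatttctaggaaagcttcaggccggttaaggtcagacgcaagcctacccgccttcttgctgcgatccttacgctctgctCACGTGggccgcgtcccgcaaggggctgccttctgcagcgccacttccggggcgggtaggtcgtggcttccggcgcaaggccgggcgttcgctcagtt
Nop2, chr6:125131633-125131932, plus strand: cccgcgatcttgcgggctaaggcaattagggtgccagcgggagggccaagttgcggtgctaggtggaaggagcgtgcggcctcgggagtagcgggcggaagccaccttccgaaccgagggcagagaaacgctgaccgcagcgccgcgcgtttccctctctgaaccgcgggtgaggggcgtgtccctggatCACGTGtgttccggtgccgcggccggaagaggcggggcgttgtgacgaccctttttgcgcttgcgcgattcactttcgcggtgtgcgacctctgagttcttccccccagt

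None of the 3 highest genes carried the motif in its window. Rrn3 held 2 motifs, beginning 215 and 48 bases before the start. Nop2 held 1, beginning 60 bases before it. In Tsr1, Pes1, Wdr43 and Utp20 the only match lay downstream of the start. The 6 genes with a match had log2 fold changes from 0.26 (Tsr1) to 0.95 (Nop2), within the range of the genes without one.

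RNA polymerase I transcription opened the pathway with 5 of 5 genes called higher. Among 11 other RNA polymerase I genes, described below, 2 were called higher (18.2%), near the 16.8% over all genes. Polr1a encodes the largest subunit of the enzyme and stood at 113, 100.3 and 115 against 75.1, 62.6 and 68.4 CPM. The groups did not overlap, with the log2 fold change at 0.67 ± 0.12 (SE of the fit, as below). Polr1b encodes the second largest subunit, which forms the active centre together with the largest, and stood at 57.6, 68.8 and 77.7 against 39.2, 20.9 and 30.4 CPM (mm10, chromosome 2, 129100996 to 129126595). Its log2 fold change of 1.17 ± 0.24 was the highest of the 5, and pro-myeloid replicate 3 held the lowest value. Polr1c, a subunit that RNA polymerase III also contains, had a log2 fold change of 0.82 ± 0.14.

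Rrn3 (TIF-IA), which links the polymerase to the promoter-bound factors and responds to growth signals, stood at 92.7, 96.6 and 104 against 64.8, 54.7 and 65.9 CPM. Its pro-lymphoid libraries were close to each other, all above the pro-myeloid libraries (log2 fold change 0.66 ± 0.12). Ubtf, which encodes the architectural factor UBF of active ribosomal DNA, stood at 254, 314 and 354 against 199, 182 and 197 CPM, and its log2 fold change was 0.67 ± 0.14. Pro-lymphoid replicate 1 held the lowest Ubtf value of that culture and still lay above all pro-myeloid libraries.

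The core proteins of the box C/D snoRNP were likewise all called higher. Fbl encodes fibrillarin, the methyltransferase of the particle, and stood at 247, 295 and 336 against 156, 137 and 168 CPM (mm10, chromosome 7, 28169748 to 28179269; log2 fold change 0.93 ± 0.15). Nop56 stood at 384, 434 and 448 against 258, 200.1 and 286 CPM. Nop58, its relative on the other side of the particle, stood at 229, 264 and 309.7 against 183, 145 and 197 CPM. Neither gene overlapped between the cultures, and the log2 fold changes were 0.77 ± 0.16 and 0.61 ± 0.17. The call of Nop58 was lost without pro-lymphoid replicate 5 or 6 or pro-myeloid replicate 3.

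Of the 4 box H/ACA core genes, 3 were called higher. Dkc1 encodes dyskerin, the pseudouridine synthase that is also part of telomerase, and stood at 146, 182 and 223 against 106, 72.4 and 116 CPM (log2 fold change 0.91 ± 0.22; the call was lost without pro-lymphoid replicate 6). Its spread within pro-lymphoid culture was wide, replicate 6 being the highest library and replicate 1 the lowest. Nop10 and Gar1, the small proteins that complete the particle, had log2 fold changes of 0.82 ± 0.16 and 0.79 ± 0.22, the call of Gar1 being lost without pro-lymphoid replicate 5 or 6 or pro-myeloid replicate 3. Nhp2 was not called, with a log2 fold change of 0.46 ± 0.18 and an overlap between pro-lymphoid replicate 1 and pro-myeloid replicate 4 (122 against 129.8 CPM). It was called without pro-lymphoid replicate 1.

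Nucleolar chaperones held the most abundant of the 40 transcripts. Ncl encodes nucleolin, which binds precursor rRNA and ribosomal DNA chromatin, and stood at 1396, 1492 and 1803 against 995, 718 and 931 CPM (mm10, chromosome 1, 86344719 to 86359455). All 3 pro-lymphoid values exceeded the highest pro-myeloid one (log2 fold change 0.83 ± 0.18). Npm1, the nucleophosmin gene that is recurrently mutated in human acute myeloid leukemia, stood at 1189, 1377 and 1602 against 904, 853 and 1161 CPM. The lowest pro-lymphoid and the highest pro-myeloid value of Npm1 lay next to each other, and edgeR gave no call (log2 fold change 0.51 ± 0.18), although DESeq2, limma-voom and edgeR with upper-quartile or no scaling did, as did edgeR without pro-myeloid replicate 4. Npm1 has processed pseudogenes, and reads that match several places could be assigned to any copy, so its level is uncertain.

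Nolc1 encodes Nopp140, which carries snoRNPs between Cajal bodies and the nucleolus, and had the highest log2 fold change of the 40 genes. It stood at 264, 292 and 333 against 161, 95.5 and 134 CPM (mm10, chromosome 19, 46075863 to 46085531; log2 fold change 1.19 ± 0.20). The groups were far apart, and pro-myeloid replicate 3 again held the lowest value. Together, the 3 chaperone genes took 0.300, 0.317 and 0.371% of the counts against 0.207, 0.160 and 0.220%.

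**Figure D2:**
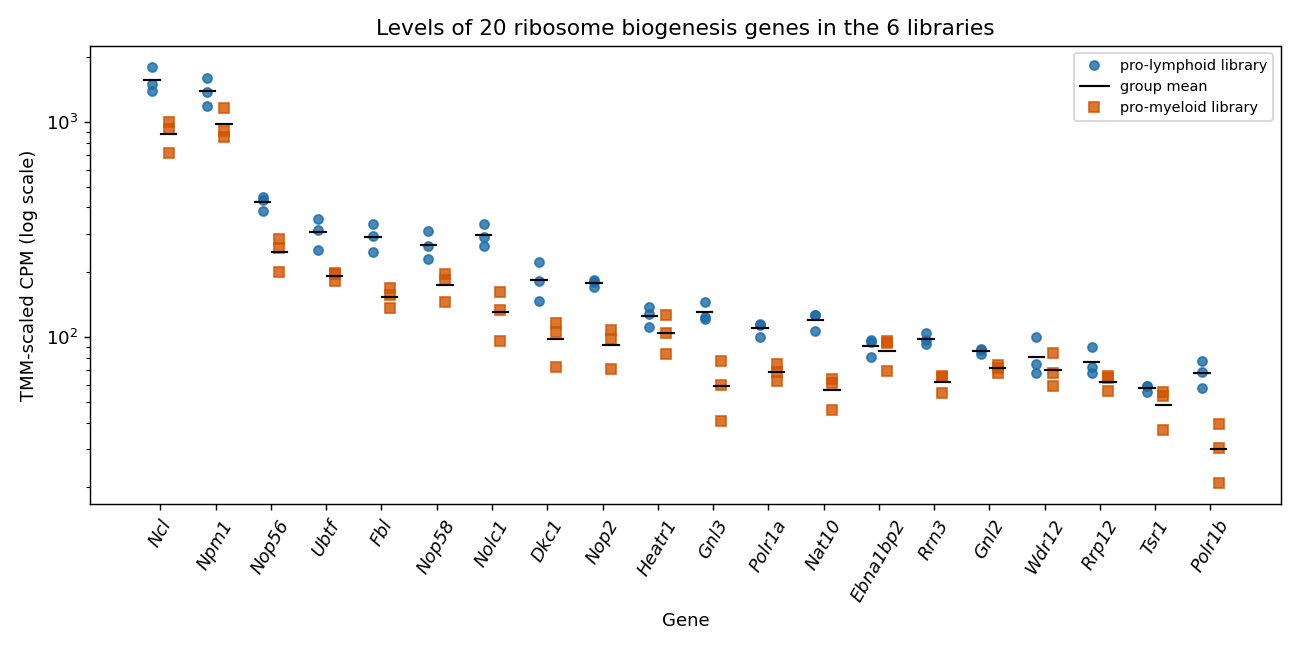
TMM-scaled CPM (y axis, log scale) of 20 of the 40 genes (x axis, ordered by mean level), with circles for the 3 libraries of pro-lymphoid and squares for the 3 of pro-myeloid culture, with a bar at each group mean. The groups are apart for Polr1b, Gnl3 and Nolc1, while Ebna1bp2, Wdr12 and Heatr1 overlap.

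Small subunit processing was represented by 14 genes, of which 10 were called higher and 4 were not. Nat10, the acetyltransferase of small subunit rRNA and of transfer RNA, led the group at 127, 107 and 126 against 60.8, 45.7 and 63.5 CPM (log2 fold change 1.08 ± 0.16). The lowest pro-lymphoid library lay well above the highest pro-myeloid one. Rrp9, which binds the box C/D snoRNA of the processome, followed with 0.84. Utp20, a large scaffold protein, and Ddx21, an RNA helicase that also acts in RNA polymerase I and II transcription, had values of 0.76 and 0.74, with each call lost without pro-lymphoid replicate 6. Nob1, the nuclease that makes the final cut of small subunit rRNA, stood at 0.71. Nop14, Wdr43, Wdr75, Utp15 and Bms1, components of the processome, lay between 0.49 and 0.66 and were also called. Of these, the calls of Wdr43, Wdr75, Utp15 and Bms1 were each lost without pro-lymphoid replicate 6, pro-myeloid replicate 3 or pro-myeloid replicate 4, among other omissions.

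The remaining 4 small subunit genes were not called. Heatr1, a processome component, stood at 127, 112 and 137 against 126, 82.9 and 104 CPM and overlapped between the groups, pro-myeloid replicate 2 lying within the pro-lymphoid range. Rrp12, which acts in export of the subunits, stood at 68.1, 72.1 and 89.9 against 64.3, 55.8 and 65.9 CPM. Tsr1, a late assembly factor, stood at 55.6, 59.2 and 59.0 against 53.01, 36.9 and 55.2 CPM. The values of Rrp12 and Tsr1 did not overlap between the cultures, but came close, with log2 fold changes of 0.31 ± 0.14 and 0.26 ± 0.17 beside 0.27 ± 0.17 for Heatr1. Ddx10, a helicase of the same pathway, had a log2 fold change of 0.40 ± 0.15 and was called without pro-lymphoid replicate 1. Tsr1 shares 616 bases of exon with Srr on the opposite strand, and since the counting did not use strand, reads there cannot be assigned to either gene.

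In large subunit assembly, 6 of 11 genes were called higher and 5 were not. Gnl3 encodes nucleostemin, a nucleolar GTPase abundant in stem and cancer cells, and stood at 123, 121 and 145 against 77.5, 40.7 and 59.9 CPM (mm10, chromosome 14, 31012433 to 31019089; log2 fold change 1.13 ± 0.23). The pro-lymphoid libraries were close together, while the pro-myeloid values spread from 40.7 to 77.5 CPM. Nop2, a cytosine methyltransferase of large subunit rRNA, stood at 181, 171 and 184 against 108, 70.9 and 97.6 CPM (log2 fold change 0.95 ± 0.17). Nop16, Nip7, Mrto4 and Rrs1, factors of early to intermediate large subunit particles, were called as well, with 0.84, 0.60, 0.59 and 0.56. The calls of Nip7, Mrto4 and Rrs1 were lost without pro-lymphoid replicate 5 or 6 or pro-myeloid replicate 3, that of Mrto4 also without pro-myeloid replicate 2, and that of Rrs1 also without pro-myeloid replicate 4.

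The PeBoW complex, made of the products of Pes1, Bop1 and Wdr12 and needed for large subunit rRNA processing, had 0 of 3 genes called. Wdr12 stood at 67.8, 74.5 and 99.8 against 67.8, 59.0 and 84.1 CPM and overlapped between the groups (log2 fold change 0.20 ± 0.19). Pes1 and Bop1 did not overlap and had log2 fold changes of 0.33 ± 0.12 and 0.35 ± 0.14. Of the 3, edgeR gave 2 at an unadjusted p under 0.05, DESeq2 called Pes1, and limma-voom called 0. Pes1 was also called without scaling factors or without pro-lymphoid replicate 1, and Bop1 without pro-myeloid replicate 2. Gnl2, a GTPase of large subunit export, stood at 83.7, 86.6 and 88.1 against 72.0, 68.2 and 73.9 CPM. Its libraries were tightly grouped within each culture and did not overlap (log2 fold change 0.27 ± 0.10), and it was called by DESeq2 and with upper-quartile or no scaling. Ebna1bp2, an early assembly factor, had the lowest log2 fold change of the 40, with levels of 80.4, 94.3 and 96.4 against 95.4, 69.4 and 93.2 CPM that overlapped between the groups (0.07 ± 0.15). Without pro-myeloid replicate 3 it turned to -0.06, the only one of the 40 to change sign among the alternatives tried. Ebna1bp2 shares up to 603 bases of an exon with the overlapping gene D4Ertd617e, so its level is uncertain.

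Levels of different genes were compared per exon length, as CPM per kilobase of exon (RPKM). Npm1 ranked first in both cultures (809 ± 120.3 RPKM in pro-lymphoid and 566 ± 96.2 RPKM in pro-myeloid culture; SD, n = 3), Fbl second (253 ± 38.3 RPKM in pro-lymphoid and 133 ± 13.7 RPKM in pro-myeloid culture) and Nop56 followed (223 ± 17.7 RPKM in pro-lymphoid and 131 ± 23.2 RPKM in pro-myeloid culture). At the other end stood Utp20 (10.5 ± 1.54 RPKM in pro-lymphoid and 6.20 ± 1.08 RPKM in pro-myeloid culture) and Polr1b (17.0 ± 2.52 RPKM in pro-lymphoid and 7.54 ± 2.30 RPKM in pro-myeloid culture), in ranks 40 and 39 of both cultures. The 3 box C/D core genes all stood in rank 7 or above in both cultures. Within the box H/ACA particle, Nop10 and Nhp2 (192 and 153 RPKM in pro-lymphoid culture) stood above Dkc1 and Gar1 (65.6 and 56.7 RPKM).

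The order of the 40 genes was much the same in both cultures (Spearman's rho 0.962 across the 40 genes, which share the libraries and lengths). Gnl3 moved from rank 21 in pro-myeloid to rank 11 in pro-lymphoid culture, Nat10 from 32 to 25 and Nolc1 from 14 to 9, while Pes1 moved from 8 to 15. Neither mean CPM nor exon length ordered the log2 fold changes (rho 0.098 and -0.126 across the 40 genes). The annotated exon length of Ncl, 8257 bases, is the second longest of the 40 and lowers its RPKM.

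**Figure D3:**
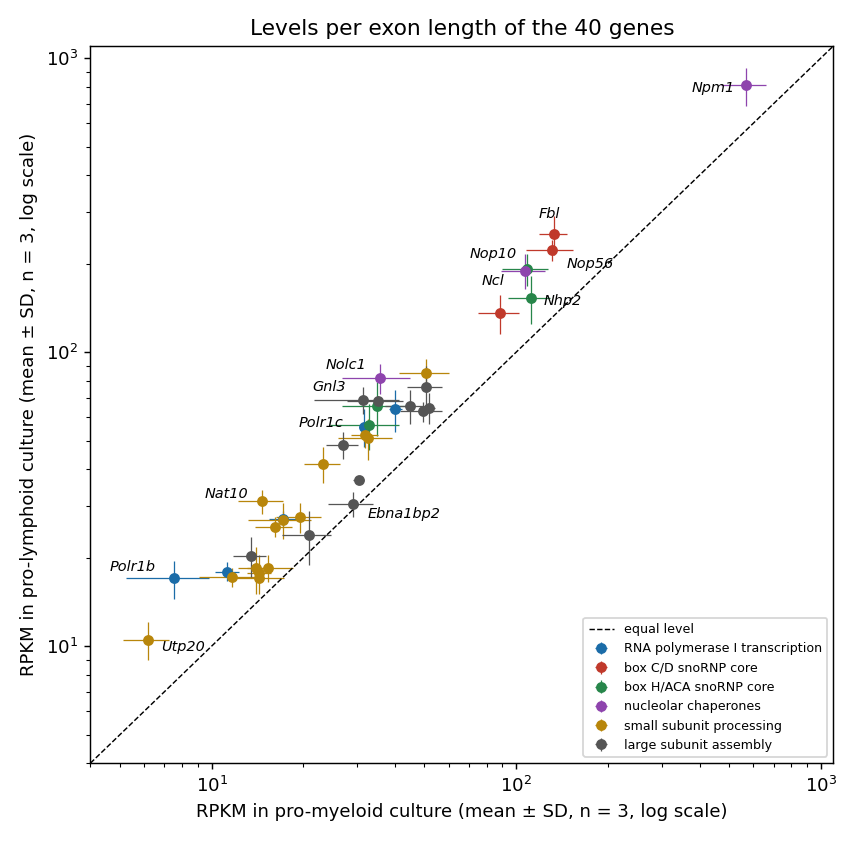
RPKM of the 40 genes in pro-lymphoid (y axis) against pro-myeloid culture (x axis), both on log scales, as mean ± SD of 3 libraries, with colours for the functional group and a dashed line at equal levels. Npm1 lies at the top at 809 against 566 RPKM, Utp20 at the bottom at 10.5 against 6.20 RPKM, and all points lie above the line.

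The libraries of each culture also differed among themselves. The 40 genes were counted in the same libraries, so the numbers of genes below are not separate observations. Pro-lymphoid replicate 6 was the highest of its culture for 36 of the 40 genes, where it was the highest for 28.6% of all genes tested. Pro-myeloid replicate 3 was the lowest of its culture for 37 of the 40 genes, beside 35.4% of all genes tested. The median deviation of the 40 genes from their group mean, on the log2(CPM + 1) scale, was -0.16, 0.01 and 0.18 in the pro-lymphoid and 0.12, -0.24 and 0.10 in the pro-myeloid libraries, where the median over all genes tested lay between -0.0030 and 0.0065 in each library. Myc deviated by -0.06, -0.08 and 0.13 and by 0.17, -0.57 and 0.40. The median level of 16 cell cycle genes was 346, 388 and 388 against 314, 199 and 282 CPM, also lowest in pro-myeloid replicate 3. These are descriptions over 6 libraries, and their part in the level of the 40 genes was not tested.

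The number of calls depended on single libraries. Without pro-lymphoid replicate 6, 17 of the 40 genes were called higher, where 1158 rather than 2091 of all genes were called higher. Without pro-myeloid replicate 3, 20 of the 40 and 1621 of all genes were called higher, and the median log2 fold change of the 40 was 0.56. Without pro-lymphoid replicate 5, 21 of the 40 and 1361 of all genes were called higher, with a median of 0.67. Across all 6 omissions of a single library, 17 to 30 genes were called higher, 0 lower, and the median lay between 0.56 and 0.73.

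**Figure D4:**
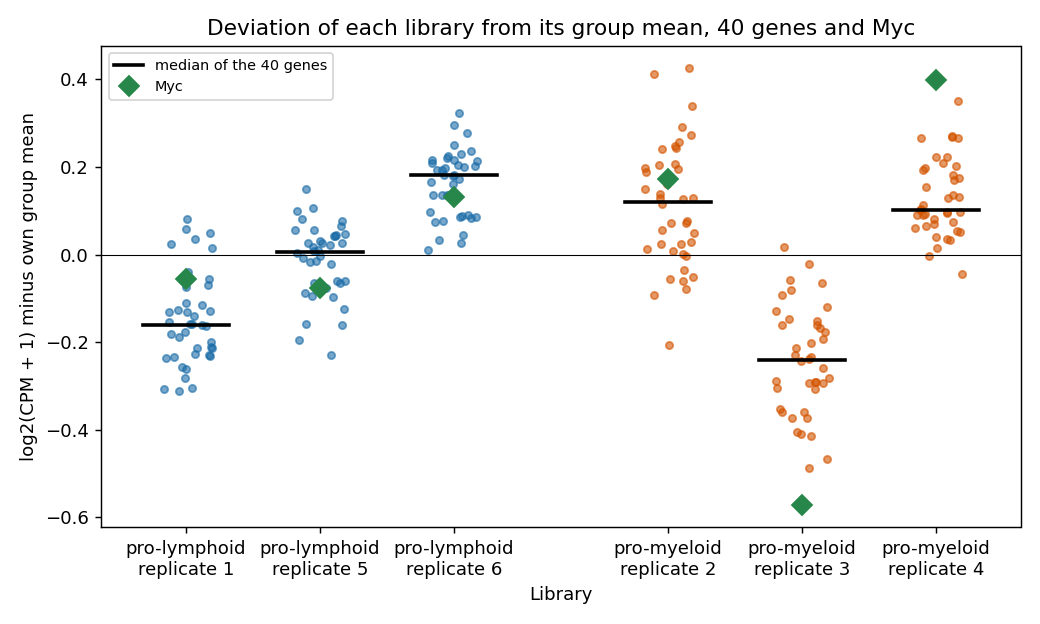
Deviation of each library (x axis) from the mean of its own culture on the log2(CPM + 1) scale (y axis) for the 40 genes (points), their median (bar) and Myc (diamond). The median is highest in pro-lymphoid replicate 6 (0.18) and lowest in pro-myeloid replicate 3 (-0.24), where Myc is at -0.57.

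Other genes of ribosome biogenesis, taken from 5 lists of pathway genes that do not include the 40, were called higher more often than lower. These lists, and the snoRNA host, Myc network, p53 and cell cycle lists below, were also chosen with earlier results of these data known. Their calls and p-values are therefore descriptions. Of 135 tested genes, 60 were higher in pro-lymphoid culture, 1 was lower and 74 did not pass (edgeR quasi-likelihood test, adjusted p under 0.05), beside 16.8% and 20.6% over all genes. Their median log2 fold change was 0.44. The difference between these lists and other genes was not tested.

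The other RNA polymerase I genes, 11 in number, had 2 higher genes and 9 that did not pass (median log2 fold change 0.18). Their share called higher, 18.2%, was near the 16.8% over all genes, and 4 of the 11 log2 fold changes were negative. Tcof1, the treacle gene of Treacher Collins syndrome, which works with UBF, stood at 272, 284 and 269 against 159.8, 116 and 133 CPM and rose by 1.01 ± 0.14 (edgeR adjusted p = 0.00187). Taf1a, a subunit of the selectivity factor SL1, rose by 0.53 ± 0.16 (edgeR adjusted p = 0.0354), a call that was lost when the filter was dropped, and also when any library except pro-myeloid replicate 2 was left out. Polr1d and Taf1d had log2 fold changes of 0.35 ± 0.12 and 0.41 ± 0.15 without a call (edgeR adjusted p = 0.0513 and 0.0743). Polr1d was called without scaling factors, with upper-quartile scaling, with DESeq2 and without pro-lymphoid replicate 1, and Taf1d without scaling factors and without that replicate. Without scaling factors, 4 genes of the list were called higher, and without pro-lymphoid replicate 1, 3.

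Among 41 other small subunit processing genes, 16 rose, 1 fell and 24 did not pass (median log2 fold change 0.30). Riok2, a late-acting kinase, rose by 1.17 ± 0.15, from 21.3 ± 3.42 to 47.7 ± 3.54 CPM (SD, n = 3; edgeR adjusted p = 0.00165). Aatf rose by 1.02 ± 0.14 (edgeR adjusted p = 0.00207) and Utp25, counted under its older symbol Diexf, by 0.81 ± 0.15 (edgeR adjusted p = 0.00648). Utp23, a processome component, moved the other way, at 19.1, 23.1 and 20.3 against 39.9, 35.4 and 36.3 CPM (log2 fold change -0.83 ± 0.13, edgeR adjusted p = 0.00322). The number of higher genes was 7 without pro-lymphoid replicate 6.

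Large subunit assembly had the largest such list, with 29 of 49 genes higher, 0 lower and 20 that did not pass (edgeR; median log2 fold change 0.50). At an unadjusted p under 0.05, 36 were higher and 1 lower, and DESeq2 called 1 lower. Lsg1, a GTPase of cytoplasmic maturation, rose by 0.90 ± 0.13 (edgeR adjusted p = 0.00207), Ppan by 0.88 ± 0.12 (edgeR adjusted p = 0.00207), Rrp1b by 0.91 ± 0.15 (edgeR adjusted p = 0.00397) and the helicase gene Ddx18 by 0.83 ± 0.14 (edgeR adjusted p = 0.00408). The groups did not overlap for any of these 4. The number of higher genes fell to 9 without pro-lymphoid replicate 6, to 15 without pro-lymphoid replicate 5 and to 17 without pro-myeloid replicate 3 or 4.

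Of 10 genes for snoRNP assembly, 5 rose and 5 did not pass. They included Ruvbl1 (0.94 ± 0.18, edgeR adjusted p = 0.00633) and Rpap3 (0.74 ± 0.15, edgeR adjusted p = 0.00759) of the R2TP chaperone complex, Nhp2l1, which encodes the box C/D protein SNU13 (0.78 ± 0.16, edgeR adjusted p = 0.0095), and Znhit6 (0.68 ± 0.16, edgeR adjusted p = 0.0136, lost without pro-lymphoid replicate 6). Without that replicate, 3 of the list were higher. Among 24 genes of the RNA exosome and RNase MRP, which trim and cut precursor rRNA, 8 rose and 16 did not pass. Exosc6 rose by 1.01 ± 0.17 (edgeR adjusted p = 0.00451) and Exosc2 by 0.92 ± 0.20 (edgeR adjusted p = 0.0112). Pop5 and Exosc5 rose by 0.85 ± 0.18 and 0.63 ± 0.14 (edgeR adjusted p = 0.0112 and 0.0132), both calls being lost without pro-lymphoid replicate 6. The number of higher genes in the list was 2 without pro-lymphoid replicate 6 and 4 without pro-lymphoid replicate 5 or pro-myeloid replicate 4.

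Many snoRNAs are made from introns of long noncoding host transcripts. Of 8 tested hosts, 3 rose and 5 did not pass. Snhg4 stood at 35.6, 24.9 and 33.1 against 9.45, 11.3 and 11.5 CPM and rose by 1.54 ± 0.19 (edgeR adjusted p = 0.00118). Snhg1 rose by 0.55 ± 0.12 (edgeR adjusted p = 0.0115, lost without pro-lymphoid replicate 6) and Snhg3 by 0.71 ± 0.17 (edgeR adjusted p = 0.017, lost without pro-lymphoid replicate 1 or 6 or pro-myeloid replicate 4). Gas5 and Snhg8 stood higher without a call (0.49 ± 0.17 and 0.58 ± 0.19, edgeR adjusted p = 0.0585 and 0.0502). Both were called by DESeq2, by limma-voom, without scaling factors and without pro-myeloid replicate 3, and Snhg8 also with size factors (RLE) or upper-quartile scaling and without pro-myeloid replicate 2. The number of higher hosts was 5 in DESeq2, limma-voom, without scaling factors and without pro-myeloid replicate 3, and 1 without pro-lymphoid replicate 6.

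Cytosolic ribosomal protein genes, which supply the protein part of the ribosome, were not called. This list was matched by symbol after values had been seen. Of 76 tested genes, 0 rose and 0 fell in edgeR, DESeq2 and limma-voom, with 0 at an unadjusted p under 0.05 in edgeR. Their log2 fold changes ran from -0.08 to 0.57 with a median of 0.20, and 71 of the 76 were positive. The top of that range was Rpl34, at a mean of 4.83 against 3.26 CPM. Rpl34, Rpl30 and Rps27 had means under 5 CPM in both cultures, far below the other tested genes of the list, whose lowest was Rpl38 (396 against 336 CPM), so the values of these 3 may not measure the genes. Rpl26 had 0 counts in every library and was not tested. The highest log2 fold change among the abundant genes was 0.50 (Rps12). The median SE of these genes was 0.22, beside 0.16 for the 40 genes, and the difference between the lists was not tested. Their share of the counts overlapped between the cultures, at 8.87, 11.2 and 11.01% against 6.65, 10.3 and 9.65%. Here pro-myeloid replicate 3, the lowest library of that culture for most of the 40 genes, held the highest share of its culture.

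**Figure D5:**
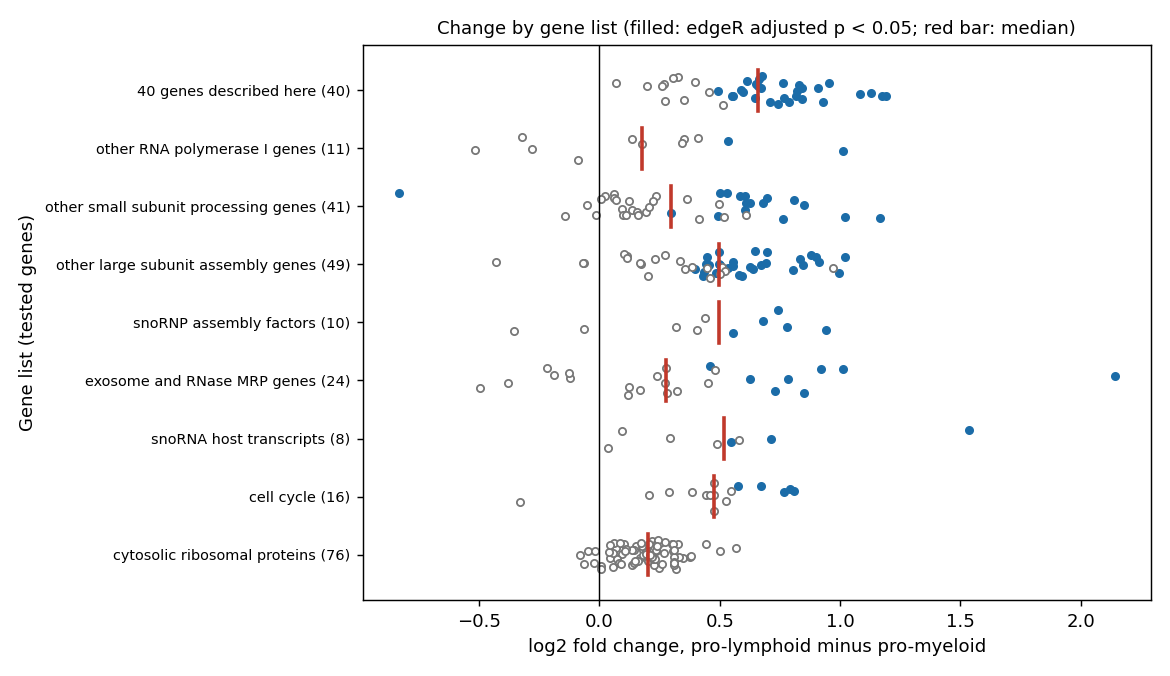
Change between cultures on the log2 scale (x axis, positive where pro-lymphoid is higher) for 9 gene lists (y axis, with their sizes). Points are single genes, solid if edgeR called them and open if not, and red bars are medians. The 40 genes lie entirely to the right of 0 with a median of 0.66, and the cytosolic ribosomal proteins are all open with a median of 0.20.

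Of 10 tested genes of the network of MYC and its partner MAX, 3 rose, 4 fell and 3 did not pass, with a median log2 fold change of -0.13. Myc stood at 306, 301 and 348 against 139.7, 82.9 and 164 CPM (mm10, chromosome 15, 61985341 to 61990361) and rose by 1.31 ± 0.24 (edgeR adjusted p = 0.0061). Mycl, counted under its older symbol Mycl1, stood at 26.2, 44.2 and 31.4 against 0.0260, 0.0888 and 0.0433 CPM and rose (edgeR adjusted p = 2.44e-05). The pro-myeloid libraries held only 1, 3 and 2 counts of it, so its fitted log2 fold change of 9.29 ± 0.42 rests on these few counts and is no measure of size. Mycn had 1, 1 and 4 counts in the pro-lymphoid libraries and 0 in each pro-myeloid library and was not tested.

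Of the partners and antagonists, Mxd1, which competes with MYC for MAX, fell (log2 fold change -0.92 ± 0.16, edgeR adjusted p = 0.00433), and so did Mlx (-0.81 ± 0.11, edgeR adjusted p = 0.00178). Max, the shared partner, had a log2 fold change of 0.32 ± 0.12 without a call (edgeR adjusted p = 0.0635). It was called by DESeq2, with upper-quartile scaling, without scaling factors and without pro-myeloid replicate 2. Mxd3 rose (0.76 ± 0.25, edgeR adjusted p = 0.0463) while Mxi1 and Mxd4 of the same family fell (-0.98 ± 0.28 and -0.80 ± 0.22, edgeR adjusted p = 0.0308 and 0.0264), these 3 being named after their values were seen. Mnt, another repressor of the network, overlapped between the groups (-0.17 ± 0.12, edgeR adjusted p = 0.307). The call of Mxd3 was lost with limma-voom and without pro-lymphoid replicate 5 or 6 or pro-myeloid replicate 3 or 4. Without pro-lymphoid replicate 6, Mxi1 and Mxd4 were not called, which left 2 lower genes in the network, and the number was 3 without pro-lymphoid replicate 1 or 5 or pro-myeloid replicate 3 or 4.

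The nucleolus also holds the ARF protein, which Cdkn2a encodes beside p16 and which binds nucleophosmin and blocks MDM2, the inhibitor of p53. Cdkn2a stood at 7.19, 6.72 and 3.79 against 24.4, 65.2 and 76.7 CPM and fell (log2 fold change -3.23 ± 0.47, edgeR adjusted p = 0.00227). The counts do not separate its 2 products. Trp53, the p53 gene, rose by 0.90 ± 0.22 (edgeR adjusted p = 0.0179), a call lost without pro-lymphoid replicate 5 or 6 or pro-myeloid replicate 4. Cdkn1a, a p53 target, had a log2 fold change of -0.56 ± 0.27 and was not called (edgeR adjusted p = 0.144) except without pro-myeloid replicate 2. Rpl11, a ribosomal protein that binds MDM2, was not called either (0.19 ± 0.21, edgeR adjusted p = 0.496).

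Cell cycle genes were counted in the same libraries. Of 16 tested genes, 5 rose and 11 did not pass (median log2 fold change 0.48), where 16.8% of all genes were higher and 20.6% lower. Mcm6, a subunit of the replicative helicase, rose by 0.67 ± 0.14 (edgeR adjusted p = 0.00944). Mcm7, Mcm2 and Mcm5 of the same helicase rose by 0.81, 0.79 and 0.77 (edgeR adjusted p = 0.0192, 0.0231 and 0.0231), calls lost without pro-lymphoid replicate 5 or 6, and for Mcm2 without pro-myeloid replicate 4. Upper-quartile scaling or DESeq2 gave 8 higher genes, and left-out libraries gave 10 without pro-myeloid replicate 2, 3 without pro-myeloid replicate 4 and 1 without pro-lymphoid replicate 5 or 6. The part of cell division in the level of the 40 genes was not tested.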

How the data were processed

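Polyadenylated RNA of 6 libraries (3 pro-lymphoid, 3 pro-myeloid) was sequenced as single-end reads, per the labels' protocols. The authors deposited 1 table of raw read counts, made with featureCounts 1.5.1 over UCSC mm10 exons, primary alignments only and without strand, per the file headers. Trimmomatic, Bowtie, TopHat, featureCounts and DESeq2 are named per the submitters' processing notes, with settings not given in the sources used here. Exon lengths come from the deposited table.

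The test was edgeR 4.0.16 (R 4.3.3) after filterByExpr and TMM scaling, by its quasi-likelihood F test, which is two-sided. P-values were adjusted after Benjamini-Hochberg over 12477 genes and called under 0.05. Positive log2 fold changes mean higher in pro-lymphoid culture, and their SE was derived from the F statistic. The procedure was also run on simulated counts, with results that are not given here and from which nothing is read. Floors of 3 counts cover counting error only. Primary alignments keep 1 place of a read that matches several, so genes with near-identical copies are uncertain, as are overlapping genes (9 of the 40 share exon bases with another gene). Every pair of libraries within a culture differed beyond counting error (chi-square divided by its degrees of freedom 39.6 or more).

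The 40 genes and the lists were chosen with earlier results of these data known. Named were 11 genes of the list by role, the 6 highest and 6 lowest, up to 4 genes per other list by p, and Myc, Mycn, Max, Mxd1, Mnt and Gas5. Of the 40, others are given by their log2 fold change. Of 262 symbols, 258 matched, 15 by an older one, and Tsr3, Nop9, Snhg15 and Zfas1 did not. Alternatives were RLE, upper-quartile or no scaling, no filter or 1 CPM in 3 libraries, DESeq2 1.42.0, limma-voom (limma 3.58.1), a minimum absolute log2 fold change of 1, and each library left out.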

Additional observations from a re-analysis of the deposited data

How the results depend on the processing

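Scaling, filtering and the choice of test changed little for the 40 genes. They called 29 to 32 higher and 0 lower, and other scalings moved the median log2 fold change of all genes by at most 0.047. With a minimum absolute log2 fold change of 1, 4 of the 40 were called, and over all genes 941 were higher and 1594 lower. That minimum left 1 other RNA polymerase I gene, 2 small subunit genes (0 lower), 1 large subunit gene, 0 snoRNP assembly factors, 2 exosome and RNase MRP genes, 1 snoRNA host and 0 cell cycle genes as higher, 0 higher in the p53 list and 0 lower in the Myc network.

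Other RNA polymerase I genes numbered 4 higher without scaling factors and 1 without the filter. Large subunit genes had 1 lower in DESeq2. The snoRNA hosts had 5 higher without scaling factors, in DESeq2 and in limma-voom, and cell cycle genes 8 higher with upper-quartile scaling and in DESeq2. The causes were not tested.

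Leaving out 1 library, which also lowers the number of libraries tested, gave 1158 to 2417 higher and 1735 to 2807 lower genes over all tested, and 17 to 30 higher of the 40. The range of higher genes was 1 to 3 for other RNA polymerase I, 7 to 18 for small subunit, 9 to 30 for large subunit, 3 to 5 for snoRNP assembly, 2 to 9 for exosome and RNase MRP, 1 to 5 for snoRNA hosts, 2 to 4 for the Myc network, 0 to 1 for p53 and 1 to 10 for cell cycle genes. Lower genes ranged from 0 to 1 in the RNA polymerase I, large subunit, snoRNP assembly, exosome and cell cycle lists, from 1 to 1 for small subunit, from 2 to 4 in the Myc network and from 1 to 2 in the p53 list.

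The share of counts in the 40 genes was 0.541% against 0.330% without Ncl and Npm1, and 0.795 to 0.871% against 0.487 to 0.559% with 1 library left out. No paired analysis was possible because no replicate number occurs in both cultures. With 3 libraries per culture, an absent call does not show an equal level.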

Other observations

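Further gene groups that serve the making and use of ribosomes were matched by symbol after values had been seen, and are given as counts beside the 16.8% higher and 20.6% lower over all genes (edgeR, adjusted p under 0.05). Of 13 tested RNA polymerase II subunits, 5 rose and 0 fell. Of the 5 subunits that all nuclear RNA polymerases share, Polr2f, Polr2h and Polr2l rose (log2 fold changes 0.82 ± 0.15, 0.56 ± 0.16 and 0.44 ± 0.14; edgeR adjusted p = 0.00567, 0.0316 and 0.0412), while Polr2e and Polr2k were not called (0.07 ± 0.17 and -0.02 ± 0.20; edgeR adjusted p = 0.756 and 0.956). Of 19 importin and exportin genes, 5 rose and 0 fell, among them Ipo4 (0.87 ± 0.14, edgeR adjusted p = 0.00312) and Xpo7 (0.92 ± 0.21, edgeR adjusted p = 0.0142).

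Of 76 mitochondrial ribosomal protein genes, 7 rose, 3 fell and 66 did not pass, with a median log2 fold change of 0.07. Mrpl33 fell, at 71.1 ± 6.01 against 153 ± 34.6 CPM (SD, n = 3; log2 fold change -1.11 ± 0.18, edgeR adjusted p = 0.00367), and Mrpl12 rose by 0.66 ± 0.13. Of 42 translation initiation factor genes, 4 rose, 1 fell and 37 did not pass. Eif5a2, a relative of the widely expressed Eif5a, had the highest log2 fold change of these (2.51 ± 0.33, edgeR adjusted p = 0.00169), at 10.6 ± 2.90 against 1.86 ± 0.502 CPM. These genes were named after their values were seen, and their dependence on single libraries was not tested.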
